A study of Homo sapiens with 6 samples.

Results

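The genes that encode the subunits and assembly factors of the proteasome were examined after knockdown of Prp19 in SK-N-AS, a long-established cell line from a human neuroblastoma. The members were all protein-coding genes whose symbol is PSMA, PSMB, PSMC, PSMD, PSME, PSMF or PSMG followed by a number. The rule found 48 such genes among the 58735 listed genes, 19951 of them protein-coding, and used no expression value. Of the 48 members, 46 reached a mean of at least 1 FPKM (fragments per kilobase of merged exon, adjusted for sequencing depth) over the libraries and were tested together with the other genes that did so, 13718 in all. *PSMA8*, the testis form of an alpha subunit, had 0 reads in every library, and *PSMB11*, the thymus form of a catalytic beta subunit, had at most 1 read. Neither could be tested, and a count of 0 allows up to 3 reads in a library.

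RNA sequencing (RNA-seq) was done on cells transfected with a small interfering RNA that targets Prp19 (siPrp19) or with a control RNA (NC), with 3 libraries per group. Prp19, encoded by *PRPF19*, is a pre-mRNA splicing factor and ubiquitin ligase. No other allele or agent is given for either group, and the labels put the harvest at 72 h of transfection, while the methods of the study state a shorter time. The labels do not say whether the libraries of a group came from separate cultures. The methods of the study state 3 biological replicates per sample, without saying what was repeated. The p-values thus describe the spread between these libraries, which may be technical.

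Each table of values carries the name of its library as the column header: NCa, NCb, NCc, siPrp19a, siPrp19b or siPrp19c. For 4 of the 6 tables this name is the description of another sample than the one the table is recorded under. NCb and siPrp19b are recorded under the opposite group. Libraries are grouped here by the column header. *PRPF19* was at 83.0, 83.1 and 93.0 FPKM in NCa, NCb and NCc, and at 19.6, 19.1 and 18.5 FPKM in siPrp19a, siPrp19b and siPrp19c. The mean was 86.4 ± 5.78 FPKM (SD, n = 3) in NC and 19.1 ± 0.573 FPKM (SD, n = 3) in siPrp19, with an exact two-sided permutation p of 0.1, the smallest that 3 libraries against 3 allow. The log2 change was −2.12 ± 0.07 (SE, limma adjusted p = 0.000215). With the groups as recorded it was −0.74 (adjusted p = 0.9998). That grouping puts NCb, at 83.1 FPKM, among the siPrp19 libraries and siPrp19b, at 19.1 FPKM, among the NC libraries. The column headers separate high from low *PRPF19*, and the recorded groups mix them. A lack of calls with the recorded groups therefore says little about a single gene. The tests, the counts of genes past the threshold, the medians and the shares of the catalytic pairs were also computed with the recorded groups and without NCb and siPrp19b.

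The libraries held between 14887132 and 19977811 reads. NCa with NCb, and siPrp19b with siPrp19c, lay closer to each other than any other pair, though their counts differed by more than sampling noise (chi-square per degree of freedom of 1.67 and 2.45, against 16.05 to 41.3 for the other pairs). Mitochondrial transcripts took 8.29% of the reads in siPrp19a and between 5.15% and 5.49% in the others. *HAND2*, a transcription factor of sympathetic neuroblasts, was at 117 to 170 FPKM in all libraries, while *TH*, for tyrosine hydroxylase, stayed below 1 FPKM. Genes chosen to mark mesenchymal neuroblastoma cells were also present, among them *VIM* at 99.4 to 162 FPKM and *CD44* at 29.9 to 38.1 FPKM. *NOTCH2*, of the same list, stayed below 1 FPKM. Of the 6 genes chosen to mark other cell types, 5 stayed below 1 FPKM, and *PTPRC*, the leukocyte antigen CD45, was at 16.9 to 30.7 FPKM.

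The proteasome is the protease that degrades most ubiquitin-tagged proteins in the cytosol and nucleus. Its 20S core is a barrel of stacked rings, in which alpha subunits (PSMA genes) form the gated outer rings and beta subunits (PSMB genes) the inner ones, some of them catalytic. The 19S cap binds the ends of the barrel. Its ring of ATPases (PSMC genes) unfolds the substrate and feeds it into the core, and its non-ATPase subunits (PSMD genes) form the lid and base that recognise ubiquitin and cleave it off. In immune cells and after interferon, inducible catalytic subunits replace the constitutive ones to make the immunoproteasome. Other activators (PSME genes) can take the place of the 19S cap, and dedicated chaperones, which do not stay in the finished particle, guide assembly. The subunits are made in matched amounts in many cells, in part through the transcription factor NRF1 (*NFE2L1*).

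The levels of the tested members spanned a wide range. By mean over the 6 libraries, *PSMB4*, a structural subunit of the beta ring, was highest at 203 FPKM, and *PSMD9*, a chaperone of the 19S base, was lowest at 1.59 FPKM, a ratio of 127. FPKM divides by the length of all exons of a gene merged together, and with the length of the principal transcript alone, an alternative chosen after the data were seen, the ratio was 90.3. Within the beta ring the 7 tested genes lay within a factor of 5.25 of each other, from *PSMB6* at 38.6 FPKM to *PSMB4*. Within the alpha ring the factor was 78.3, from *PSMA2* at 1.63 FPKM to *PSMA7* at 127 FPKM. *PSMA6* was also low, at 1.78 FPKM. On the principal transcript length *PSMA2* was at 5.85 and *PSMA6* at 11.3 per kilobase, still below the 19.97 of *PSMA1*, the next lowest of the ring. For *PSMA2*, 34.6% of the exon bases are shared with other annotated genes, for *PSMA6* 14.1%, for *PSMA1* 24.66% and for *PSMD9* 22.65%. Reads in shared bases are often left uncounted, so the levels of these genes are uncertain. The pseudogene *PSMA6P1* had up to 4.015 FPKM (47 reads) in a library, while *PSMA2P1*, *PSMA2P2* and *PSMA2P3* had no reads. The effect of such copies on the levels was not tested. The opposite case was *PSMG4*, at 2.39 FPKM on merged exons and 29.8 on the principal transcript, because its merged exons are 12.4 times as long. The genes of one ring thus did not have equal FPKM, although their products enter the particle in equal number.

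After knockdown, nearly all proteasome genes stayed short of the threshold of the test. By limma with Benjamini-Hochberg adjustment over all 13718 genes, 1 of the 46 members fell, *PSMC3*, and 0 rose at an adjusted p below 0.05. Over all genes, 7.94% passed this threshold, 5.37% as lower and 2.57% as higher. At an unadjusted p below 0.05 there were 5 of 46 members, against 23.6% of all genes. No member passed the threshold with a change above 1.5-fold, which 2.84% of all genes did. With the groups as recorded, 0 members and 0 genes passed by limma (191 genes at an unadjusted p below 0.05), and without NCb and siPrp19b 0 members and 2 genes (0.0146%) passed (1685 genes at an unadjusted p below 0.05). The median log2 change was −0.05 over the members and −0.02 over all genes, and 33 of 46 members lay below 0, as did 54.0% of all genes. The sign of the members' median turned under quantile normalization (0.05, 19 of 46 below 0) and without NCc (0.01, 21 of 46 below 0), and with an equal sum in each library 24 of 46 lay below 0. The 95% intervals of the members' log2 changes lay between −0.73 and 0.42. RNA from a whole culture does not tell fewer cells apart from less RNA per cell.

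**Figure D1:**
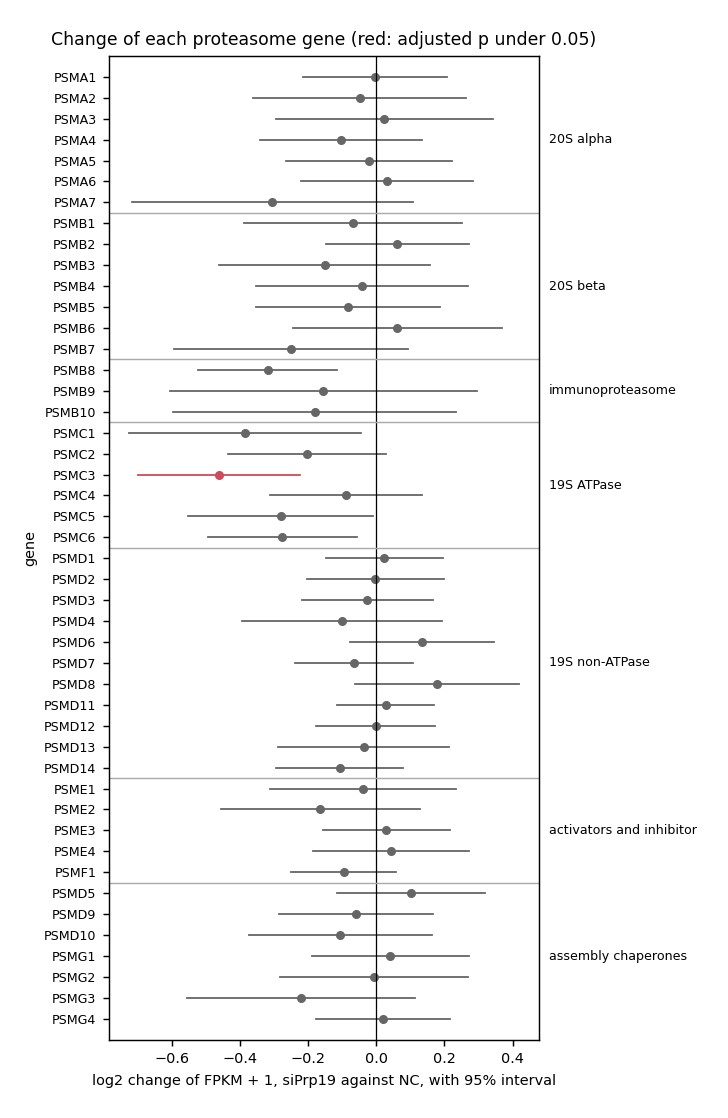
Log2 change of FPKM + 1 (horizontal axis, siPrp19 against NC, 3 libraries each) for the 46 tested members, grouped by subcomplex. Points are the limma estimates, lines their 95% intervals, and *PSMC3* in red is the 1 member with an adjusted p below 0.05; all 6 ATPase genes lie to the left of 0 (5 of the 6 under quantile normalization).

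The 6 genes of the 19S ATPase ring had a median log2 change of −0.28 (−0.46 to −0.09), with all 6 below 0. It was the lowest of the 7 groups of members, but with the groups as recorded (−0.17 against −0.27) and without NCb and siPrp19b (−0.33 against −0.34) the 3 immunoproteasome genes had the lower median. Under quantile normalization 5 of the 6 were below 0 and *PSMC4* was at 0.07. *PSMC3* (ENSG00000165916, GRCh38 chr11:47418769-47426473, minus strand) was at 67.2, 66.0 and 82.7 FPKM in NCa, NCb and NCc, and at 51.2, 50.8 and 53.1 FPKM in siPrp19a, siPrp19b and siPrp19c. Every siPrp19 library was below every NC library, and the siPrp19 values lay closer together than the NC values. The mean fell from 72.0 ± 9.32 to 51.7 ± 1.22 FPKM (SD, n = 3 each), a log2 change of −0.46 ± 0.10 (SE, limma adjusted p = 0.0390). Without NCc it was −0.36 (adjusted p = 0.0191). Without NCb and siPrp19b it was −0.51 (adjusted p = 0.293), and with the groups as recorded −0.22 (adjusted p = 0.9998). Leaving out any single library other than NCc also took the adjusted p above the threshold, to between 0.0761 and 0.146. Between 1840 and 3237 reads per library stood behind the gene, none of its exon bases is shared with another gene, and no pseudogene of it is annotated among the 44 pseudogenes of the members.

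Of the other 5 ATPase genes, *PSMC1*, *PSMC2*, *PSMC5* and *PSMC6* also had every siPrp19 library below every NC library, though none passed the adjusted threshold. *PSMC1* was at 13.2, 13.3 and 14.2 FPKM in the NC libraries and at 7.79, 11.8 and 11.3 FPKM in siPrp19a, siPrp19b and siPrp19c, a log2 change of −0.39 ± 0.14 (SE, adjusted p = 0.163). Its low value in siPrp19a set much of this difference, since without siPrp19a the change was −0.21. *PSMC6* was at 11.3, 11.6 and 13.0 FPKM in NC and at 8.66, 10.0 and 10.5 FPKM in siPrp19, a log2 change of −0.28 ± 0.09 (SE, adjusted p = 0.126). *PSMC5* was at 42.7, 42.0 and 53.9 FPKM in NC and at 34.7, 38.1 and 40.2 FPKM in siPrp19 (log2 change −0.28 ± 0.11, SE, adjusted p = 0.196). *PSMC2* was at 28.5, 27.5 and 34.9 FPKM in NC and at 25.8, 25.6 and 26.7 FPKM in siPrp19 (log2 change −0.20 ± 0.10, SE, adjusted p = 0.267). In both genes NCc was far above NCa and NCb, and the gap between NCb and the highest siPrp19 library was small. *PSMC4* overlapped, with 68.1, 66.6 and 80.4 FPKM in NC and 69.7, 63.7 and 68.2 FPKM in siPrp19 (log2 change −0.09). Much of the exon sequence of *PSMC1* (75.8%) overlaps *NRDE2* on the opposite strand and part of that of *PSMC5* (19.5%) overlaps *FTSJ3*. The library kit does not mark strand, so reads there cannot be assigned to one gene. *PSMC2*, *PSMC3*, *PSMC4* and *PSMC6* share no exon base. The pseudogene *PSMC1P1* had up to 4.14 FPKM (94 reads) in a library, and its effect on the *PSMC1* values was not tested.

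Counted over all members, 6 of 46 (13.0%) had every siPrp19 library below every NC library, the 5 ATPase genes above and *PSMB8*, and 0 had every siPrp19 library above. Over all tested genes, 18.1% did not overlap in the lower direction and 13.2% in the higher direction, 31.3% together. The members' share was thus not above that of all genes.

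**Figure D2:**
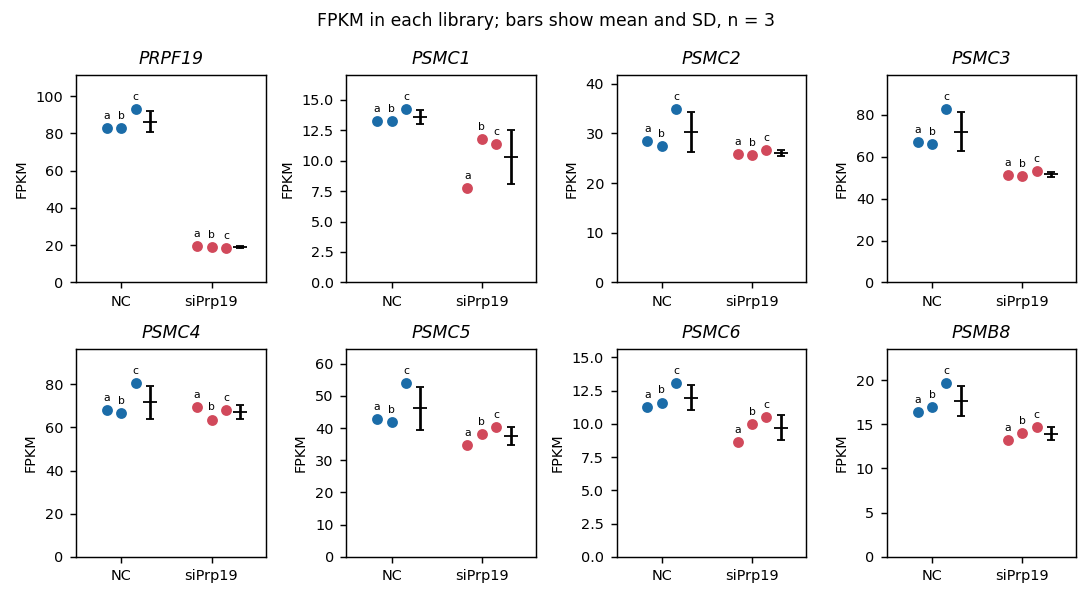
FPKM (vertical axes, from 0) of *PRPF19*, the 6 genes of the 19S ATPase ring and *PSMB8* in each library; blue points are NC, red points siPrp19, letters name the library, and bars give the mean and SD (n = 3). The siPrp19 libraries lie below the NC libraries for all 8 genes except *PSMC4*, and NCc is the highest library in each panel.

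The 5′ flanks of 3 ATPase genes with separate groups are shown because each holds a CCAAT box, a motif bound by the factor NF-Y and frequent in promoters. Each sequence is the 250 bases before the RefSeq transcription start on GRCh38.p14, written 5′ to 3′ on the strand of the gene, with the CCAAT in capitals. The windows are chr11:47426440-47426689 (minus strand), chr7:103347393-103347642 (plus strand) and chr17:63827181-63827430 (plus strand). The GENCODE 29 gene models of *PSMC2* and *PSMC5* begin before their windows, and that of *PSMC3* begins inside its window.
PSMC3: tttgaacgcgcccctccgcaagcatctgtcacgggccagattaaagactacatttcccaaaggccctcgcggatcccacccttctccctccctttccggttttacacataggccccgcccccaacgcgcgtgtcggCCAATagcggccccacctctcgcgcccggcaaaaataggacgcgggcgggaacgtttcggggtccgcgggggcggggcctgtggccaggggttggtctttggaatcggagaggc
PSMC2: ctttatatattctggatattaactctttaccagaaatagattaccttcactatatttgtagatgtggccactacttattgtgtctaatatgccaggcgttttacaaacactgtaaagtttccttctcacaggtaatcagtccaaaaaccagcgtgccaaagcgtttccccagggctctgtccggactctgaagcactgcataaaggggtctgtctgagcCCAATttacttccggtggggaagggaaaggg
PSMC5: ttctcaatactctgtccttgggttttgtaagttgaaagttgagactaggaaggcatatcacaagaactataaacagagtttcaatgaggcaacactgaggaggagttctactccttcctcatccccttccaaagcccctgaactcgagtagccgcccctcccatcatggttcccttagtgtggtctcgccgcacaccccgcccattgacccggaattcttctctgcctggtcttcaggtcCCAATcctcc
The box ends 109 bases before the start in *PSMC3*, 26 in *PSMC2* and 5 in *PSMC5*. The letters CCAAT, searched on both strands, were not in the windows of *PSMC1*, *PSMC4* and *PSMC6*. Of the 42 members with a RefSeq promoter, 18 (42.9%) held CCAAT in this window, against 33.0% of 27305 promoters. The core of the antioxidant response element, TGACNNNGC, which NRF1 and its relatives bind, was in 11 of 42 (26.2%), against 11.0% of all promoters on both strands, and in 0 of the 6 ATPase genes. Matches of the 2 motifs overlapped in 0 members and in 35 of all promoters. A match is a description of the sequence and no binding was measured. *PSMA7*, *PSMB1*, *PSMB6*, *PSMB7*, *PSMD4* and *PSMG3* had no promoter in the table.

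The 11 non-ATPase genes of the 19S cap had a median log2 change of −0.003 (−0.11 to 0.18), with 7 below 0 and 4 above. None passed the adjusted threshold. *PSMD4*, a ubiquitin receptor, was the highest of them, at 86.2, 86.9 and 112 FPKM in the NC libraries and 80.5, 91.9 and 92.2 FPKM in the siPrp19 libraries. *PSMD6*, a lid subunit, was the lowest, at 10.9, 11.1 and 12.3 FPKM in NC and 14.2, 11.8 and 12.1 FPKM in siPrp19. Both overlapped between groups. *PSMD8*, another lid subunit, had the largest positive change of all 46 members. It was at 47.3, 49.5 and 60.0 FPKM in NC and at 61.3, 57.4 and 58.3 FPKM in siPrp19, so that only NCc reached the siPrp19 libraries. The log2 change was 0.18 ± 0.10 (SE, adjusted p = 0.346), and without NCc it was 0.28 (adjusted p = 0.0419). With all 6 libraries under quantile normalization it was 0.32 (adjusted p = 0.0488). The scaffold subunits *PSMD1* and *PSMD2* had almost equal means, 35.1 ± 0.794 against 35.8 ± 2.36 FPKM and 63.6 ± 2.45 against 63.6 ± 5.29 FPKM (SD, n = 3 each).

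The 20S core showed no member past the threshold in either ring. The 7 tested alpha genes had a median log2 change of −0.02 (−0.30 to 0.03) and the 7 tested beta genes of −0.07 (−0.25 to 0.06), with 5 below 0 in each ring. Without NCc both medians were above 0, at 0.07 for the alpha ring and 0.09 for the beta ring, with 2 of 7 genes below 0 in each, and under quantile normalization 4 of 7 alpha genes and 1 of 7 beta genes lay below 0. With voom, a limma model for counts, on the reads recovered from FPKM, 3 of 7 alpha genes lay below 0. The lowest change of the alpha ring was that of *PSMA7*, at 127, 126 and 170 FPKM in NCa, NCb and NCc and at 90.4, 125 and 127 FPKM in siPrp19a, siPrp19b and siPrp19c. NCa, NCb, siPrp19b and siPrp19c lay together, with NCc above and siPrp19a below them. The log2 change was −0.30 ± 0.17 (SE, adjusted p = 0.348), between −0.39 and −0.15 with any 1 library left out. *PSMB7*, the catalytic subunit with trypsin-like activity, had the same form, with 96.7, 95.2 and 126 FPKM in NC and 75.3, 94.7 and 96.2 FPKM in siPrp19 (log2 change −0.25 ± 0.15, SE, adjusted p = 0.355). *PSMB5*, with chymotrypsin-like activity, was at 110, 101 and 129 FPKM in NC and at 97.9, 109 and 113 FPKM in siPrp19. *PSMB6*, with caspase-like activity, was at 35.4, 33.2 and 44.9 FPKM in NC and at 35.1, 40.5 and 42.5 FPKM in siPrp19. *PSMB4* was at 189, 182 and 249 FPKM in NC and at 203, 194 and 198 FPKM in siPrp19. In each of these genes NCc was the highest library and the groups overlapped.

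The 3 inducible subunits of the immunoproteasome had log2 changes between −0.32 and −0.15, all below 0, and none passed the adjusted threshold. *PSMB8*, which replaces PSMB5, was at 16.4, 17.0 and 19.6 FPKM in the NC libraries and at 13.2, 13.97 and 14.7 FPKM in the siPrp19 libraries. The groups did not overlap, and the log2 change was −0.32 ± 0.09 (SE, adjusted p = 0.0726). It was −0.35 without NCb and siPrp19b (adjusted p = 0.408). *PSMB9*, which replaces PSMB6, was at 13.1, 12.8 and 17.4 FPKM in NC and at 9.42, 14.9 and 14.8 FPKM in siPrp19 (log2 change −0.15 ± 0.19, SE, adjusted p = 0.681). Without siPrp19a its sign turned, to 0.05. *PSMB10*, which replaces PSMB7, was at 3.89, 4.135 and 5.52 FPKM in NC and at 2.80, 4.64 and 4.24 FPKM in siPrp19 (log2 change −0.18 ± 0.18, SE, adjusted p = 0.593). Without siPrp19a its change was −0.008, and without NCc −0.05. Each of the 3 was lowest in siPrp19a, the library with the larger mitochondrial share, and without siPrp19a the median change of the 3 was −0.008 in place of −0.18. *PTPRC*, a gene of white blood cells, in which the immunoproteasome is abundant, was at 24.9 to 30.7 FPKM in NC and 16.9 to 20.4 FPKM in siPrp19. Its log2 change was −0.63 ± 0.11 (SE, limma adjusted p = 0.0202). *CD68*, of macrophages, reached at most 0.0929 FPKM. Whether the level of *PTPRC* bears on the inducible subunits was not tested. *PSMB8* shares 20.6% of its exon bases with *PSMB9* and the antisense gene *PSMB8-AS1*. *PSMB10* shares 34.75% with the gene ENSG00000261884, so its level and its share of a pair are uncertain.

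Because an inducible subunit takes the place of a constitutive one, its FPKM was also set against the sum of the pair, a ratio that does not depend on the scaling of the library. *PSMB8* made up 13.0%, 14.4% and 13.2% of its pair with *PSMB5* in NCa, NCb and NCc, and 11.9%, 11.3% and 11.5% in siPrp19a, siPrp19b and siPrp19c. All 3 siPrp19 libraries lay below the lowest NC library, with means of 13.5% ± 0.787 in NC and 11.6% ± 0.287 in siPrp19 (SD, n = 3 each). The exact permutation p was 0.1, the smallest possible, and 0.15 after adjustment over the 3 pairs. *PSMB9* made up 27.0%, 27.9% and 28.0% of its pair with *PSMB6* in NC and 21.2%, 26.9% and 25.8% in siPrp19. Its means were 27.6% ± 0.520 and 24.6% ± 3.03 (SD, n = 3 each, exact permutation p of 0.1, adjusted 0.15), and the difference of −3.01 percentage points was −1.28 without siPrp19a. *PSMB10* made up 3.86%, 4.16% and 4.20% of its pair with *PSMB7* in NC and 3.59%, 4.68% and 4.22% in siPrp19, with overlapping groups (exact permutation p of 0.8). With the groups as recorded, the difference in the *PSMB8* share was 0.103 percentage points in place of −1.96, and without NCb and siPrp19b it was −1.39. With 3 libraries against 3, no single value of this kind can reach 0.05. The size of a share depends on the gene lengths used: on the principal transcripts *PSMB8* made up 23.4% ± 1.203 in NC and 20.4% ± 0.455 in siPrp19, and *PSMB9* 46.9% ± 0.649 and 42.9% ± 4.07 (SD, n = 3 each). The order of the libraries stays the same by construction, since the length of a gene is constant over the libraries.

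**Figure D3:**
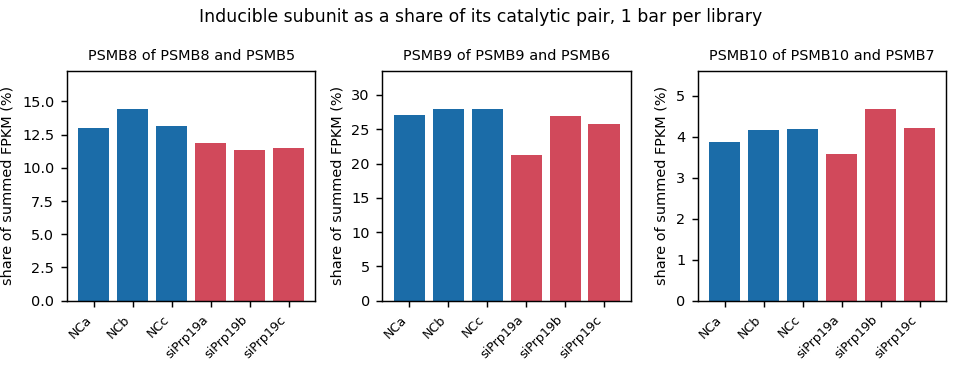
FPKM of the inducible subunit as a percentage of the summed FPKM of its catalytic pair (vertical axes, from 0), with 1 bar per library, NC in blue and siPrp19 in red. The *PSMB8* share is 13.0% to 14.4% in NC and 11.3% to 11.9% in siPrp19, the *PSMB9* share is lowest in siPrp19a at 21.2%, and the *PSMB10* shares overlap.

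Of the alternative activators and the inhibitor, 0 of 5 genes passed the threshold, with a median log2 change of −0.04 (−0.16 to 0.04). *PSME1* and *PSME2* encode the subunits of the interferon-inducible cap PA28. *PSME1* was at 91.5, 93.0 and 119 FPKM in NC and at 100.5, 97.6 and 95.5 FPKM in siPrp19, and *PSME2* at 35.7, 35.5 and 46.7 FPKM in NC and at 31.9, 37.4 and 35.0 FPKM in siPrp19. *PSME3*, for the nuclear cap PA28 gamma, was at 59.1, 56.4 and 55.2 FPKM in NC and at 62.1, 58.4 and 54.0 FPKM in siPrp19. *PSME4*, for the large activator PA200, was at 12.2, 12.04 and 10.2 FPKM in NC and at 13.1, 11.3 and 11.1 FPKM in siPrp19, and *PSMF1*, for the inhibitor PI31, was at 22.6, 22.1 and 22.7 FPKM in NC and at 22.2, 20.4 and 20.4 FPKM in siPrp19. In all 5 the groups overlapped. *PSME3* and *PSME4* were 2 of the few members for which NCc was not the highest library.

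The 7 assembly chaperones had a median log2 change of −0.01 (−0.22 to 0.10), and 0 passed the threshold. *PSMG1* and *PSMG2* form a dimer that starts the alpha ring. *PSMG1* was at 13.6, 12.5 and 16.2 FPKM in NC and at 14.8, 14.1 and 14.4 FPKM in siPrp19, and *PSMG2* at 13.9, 12.7 and 17.1 FPKM in NC and at 13.1, 15.0 and 15.1 FPKM in siPrp19. *PSMG3*, which acts with PSMG4 at the next step, was at 33.9, 34.5 and 44.1 FPKM in NC and at 26.8, 33.9 and 35.4 FPKM in siPrp19 (log2 change −0.22 ± 0.14, SE, adjusted p = 0.403). *PSMG4* was at 2.35, 2.20 and 2.56 FPKM in NC and at 2.39, 2.34 and 2.52 FPKM in siPrp19. The chaperones of the 19S base were at 13.4 ± 0.992 FPKM in NC and 14.5 ± 1.43 FPKM in siPrp19 for *PSMD5*, at 1.65 ± 0.137 and 1.54 ± 0.104 FPKM for *PSMD9*, and at 20.1 ± 2.55 and 18.6 ± 1.88 FPKM for *PSMD10* (SD, n = 3 each).

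One NC library differed from the other two across the proteasome genes by a larger median than the siPrp19 group did from NC. NCc was the highest of the 6 libraries for 38 of 46 members (82.6%), as it was for 28.6% of all tested genes. This held for 7 of 7 alpha genes, 7 of 7 beta genes, 3 of 3 inducible subunits and 6 of 6 ATPase genes, and for 6 of 11 non-ATPase genes, 6 of 7 chaperones and 3 of 5 activator and inhibitor genes. Against the mean of NCa and NCb, NCc had a median log2 ratio of 0.27 over the members (−0.23 to 0.46), 1.21-fold, with 42 of 46 above 0. Over all tested genes the median was 0.02 with 52.6% above 0, and over the 4914 genes with a mean of at least 10 FPKM it was 0.10 with 64.4% above 0. The beta ring had a median of 0.39. The summed FPKM of the 46 members was 1824, 1783 and 2233 in NCa, NCb and NCc and 1752, 1823 and 1855 in siPrp19a, siPrp19b and siPrp19c. So NCa and NCb lay within the range of the siPrp19 libraries and NCc alone lay above it. Over all tested genes the summed FPKM was also highest in NCc, at 313100, against 282200 in NCa and 280700 in NCb. In siPrp19a, siPrp19b and siPrp19c that sum was 298500, 275300 and 274800. Part of the higher member sum in NCc was thus shared with all genes. At the other end, siPrp19a was the lowest library for 18 of 46 members (39.1%), against 24.7% of all genes.

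**Figure D4:**
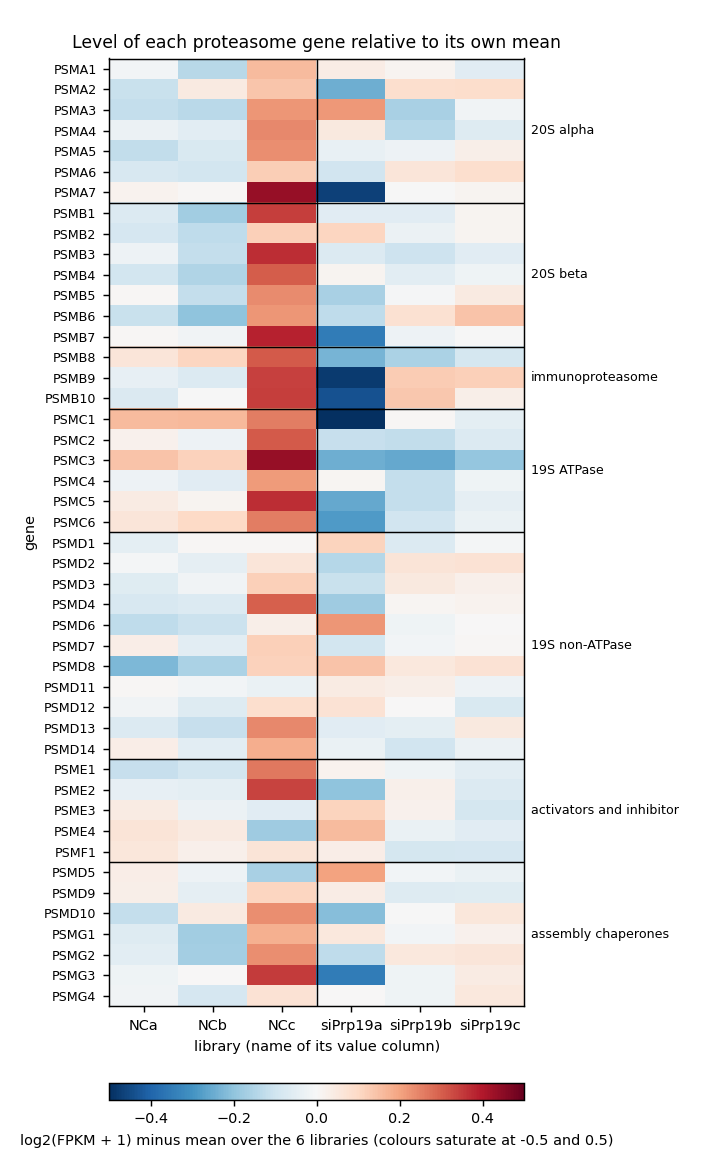
Log2(FPKM + 1) of each tested member minus its mean over the 6 libraries (colour scale, saturating at −0.5 and 0.5), with genes in rows by subcomplex and libraries in columns, NC left of the vertical line. The NCc column is red for most genes, highest of the 6 for 38 of 46, and siPrp19a is the darkest blue for *PSMA7*, *PSMB9*, *PSMB10* and *PSMC1*.

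Genes that work with the proteasome were counted from a list of 29 tested regulators, shuttle factors, ubiquitin genes and associated enzymes. Their median log2 change was −0.02 (−0.54 to 0.27), with 18 below 0 and 11 above, and 1 of 29 fell past the threshold, none rose, against 5.37% of all tested genes lower and 2.57% higher. With voom on the recovered reads 2 of 29 were called lower and 1 higher, and under quantile normalization 10 of 29 lay below 0. *UBE3A*, a ubiquitin ligase that binds the proteasome, was at 9.95, 10.1 and 8.88 FPKM in NC and at 6.93, 6.25 and 5.74 FPKM in siPrp19, with separate groups and a log2 change of −0.54 ± 0.09 (SE, adjusted p = 0.0148). With the groups as recorded it was −0.14 (adjusted p = 0.9998), without NCb and siPrp19b it was −0.51 (adjusted p = 0.242), and leaving out NCa, NCb, siPrp19b or siPrp19c alone took the adjusted p to between 0.0662 and 0.0726. Just outside the threshold lay *USP14*, a deubiquitinase of the 19S cap, at −0.34 ± 0.08 (SE, adjusted p = 0.0504), and *UBQLN4*, a shuttle factor, at 0.27 ± 0.06 (SE, adjusted p = 0.0524). *USP14* passed without siPrp19a (adjusted p = 0.0201) and with voom (adjusted p = 0.0489). *UBQLN4* passed without NCc (adjusted p = 0.0449), with voom (adjusted p = 0.0372) and under quantile normalization (adjusted p = 0.0410). These 2 were named after their values were seen. *NFE2L1*, for the factor NRF1, was at 79.1, 77.8 and 72.2 FPKM in NC and at 77.7, 88.5 and 86.2 FPKM in siPrp19, with overlapping groups (log2 change 0.14 ± 0.08, SE, adjusted p = 0.378). *NFE2L2*, for its relative NRF2, was at 26.2, 26.6 and 27.8 FPKM in NC and at 34.4, 23.7 and 25.3 FPKM in siPrp19, also overlapping.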

How the data were processed

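RNA of 3 NC and 3 siPrp19 samples of SK-N-AS cells was extracted with TRIzol, and libraries were made with the NEBNext Ultra kit. Per the labels, the authors used HISAT2 2.0.5, featureCounts 1.5.0-p3 and the build hg38 (from the submitters' processing notes). The annotation release and the strand setting were not given in the sources used here. The authors deposited 1 table of FPKM values per library. The FPKM times the merged exon length in GENCODE 29 gave whole reads for 100.0% of values above 0 (tolerance 0.05 reads), and the authors' scale differed from the read totals by a factor of 0.951 to 1.04. All 58735 identifiers were found in GENCODE 29, and current symbols were taken for 58207.

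Values were transformed to log2(FPKM + 1), which understates changes of low genes, where the mean over the libraries was 1 FPKM or more. Groups were compared with limma 3.58.1 in R 4.3.3 (moderated test, mean-variance trend, Benjamini-Hochberg adjustment over all tested genes, threshold 0.05). The study itself used DESeq2, which does not take FPKM. Single values were compared with an exact two-sided permutation test (scipy 1.17.1). The procedure was also run on simulated data. There the libraries were independent and the changes larger than those of the members, so that run does not bear on the calls made here. The members and gene lists were chosen with earlier results of these data known. All members were described by subcomplex, and those named with values were the members past the threshold with separate groups, the catalytic subunits, the activators, the PSMG chaperones, and the highest and lowest of each group. The other genes given with values, among them the rest of the ATPase ring and *PSMD8*, were chosen after their values were seen. Alternatives were the groups as recorded, 4 libraries without NCb and siPrp19b, the mean of each close pair of libraries, a pseudocount of 0.1, no filter, quantile normalization, an equal sum per library, no trend, voom on the recovered reads with scaling by the trimmed mean of M-values, the replicate letter as a block, and each library left out. Lengths of principal transcripts, for levels between genes and pair shares, were added after the data were seen. Promoters came from RefSeq (GRCh38.p14, 42 of 48 members matched). No protein sequence was used here. One marker of the cell type is not reported here.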

Additional observations from a re-analysis of the deposited data

How the results depend on the processing

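Of 513 recomputed values, 454 met the rule set for their kind. Counts had to stay within 1.5-fold of the main count, or at 0 where that was 0. Medians had to move by no more than the spread between replicates. Single genes had to keep their sign and call, and pair shares their sign. Some met the rule by construction: the medians do not change without a trend, without a filter or with the replicate block. A gene without a call met its rule wherever it kept its sign and stayed uncalled. In fits with few calls over all genes, such agreement says little. The number of genes called by limma, 1089, was 0 with the groups as recorded, 2 with 4 libraries, 2 with close pairs averaged, 512 without a filter, 679 with an equal sum per library, and 253 to 1354 with 1 library left out (253 to 335 without NCa, NCb, siPrp19b or siPrp19c). With voom on the recovered reads it was 1361. The share of calls that were higher was 32.4%, and 46.1% under quantile normalization. Members called lower, 1, were 0 with the groups as recorded, with 4 libraries, with close pairs averaged and without a filter, and 0 to 1 with 1 library left out. *PSMC3* passed in 7 of 16 alternatives and was below 0 in all 16 (−0.52 to −0.22). Members called higher, 0, were 1 under quantile normalization and 0 to 1 with 1 library left out, in both cases *PSMD8*. The median log2 change under quantile normalization was 0.09 for the non-ATPase genes and 0.11 for the beta ring. *PRPF19* was at −0.74 with the groups as recorded. The sign of *PSMC4* turned under quantile normalization (0.065) and that of *PSMB9* without siPrp19 replicate 1 (0.046, and −0.26 to 0.046 with 1 library left out). The difference in the *PSMB8* share turned to 0.103 percentage points with the groups as recorded (−2.23 to −1.50 with 1 library left out). That in the *PSMB10* share, 0.0875, was −0.254 with the groups as recorded, −0.125 with 4 libraries, −0.0877 with close pairs averaged and −0.419 under quantile normalization, and −0.169 to 0.375 with 1 library left out (−0.0191 without NC replicate 1). The causes were not tested. Some alternatives have fewer libraries or more genes by construction. The number of libraries alone does not set the number of calls. Leaving out 1 library gave 1354 calls without NCc and 1033 without siPrp19a, and 253 to 335 without a library of a close pair. With 2 libraries in each group, the fit has fewer degrees of freedom. Leaving out 1 library leaves 2 in its group. Depth limits the low members most: *PSMB10* rested on 82 to 176 reads per library, and *PSMB4* on 5783 to 9239.

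Deviations from the group means correlated at 0.134 for a, −0.0490 for b and 0.204 for c. Between libraries with different letters they correlated at −0.199 to 0.131. With so few libraries these values cannot tell whether the replicate letters pair the libraries, and the main comparison used no pairing. With the replicate block, 928 genes were called and 1 member, *PSMC3*, was called lower.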
